A study of Mus musculus with 4 samples.

Results

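The Msx and Dlx homeobox genes of the mouse were examined for deposited peaks of phosphorylated Smads in the early molar. The set holds 8 genes, Msx1, Msx2, Dlx1, Dlx2, Dlx3, Dlx4, Dlx5 and Dlx6, of 21523 protein-coding genes placed on chromosomes 1 to 19 and X. They were chosen by name, not by their peaks, though with earlier results of these data known. They lie in 5 regions on 5 chromosomes, since the 6 Dlx genes form 3 neighbouring pairs, so the 8 genes are not 8 independent places. A peak was assigned to a gene where it touched the gene body or the 10 kb on either side, called the locus here, and peaks up to 100 kb away were listed as context for distant enhancers.

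The material was E13.5 mouse tooth germs, taken from the molars of wild-type CD1 embryos at the bud stage (E, embryonic day). The germs were dissociated into single cells and profiled by CUT&RUN, in which an antibody directs micrococcal nuclease to chromatin and the released fragments are sequenced. Both groups share tissue, strain, genotype and age and differ in the antibody: 2 libraries were made against Smad1/5 in its phosphorylated form (pSmad1/5) and 2 against phosphorylated Smad3 (pSmad3). Each antibody has 1 deposited list of peaks common to its 2 libraries. The pSmad1/5 list holds 10741 peaks and the pSmad3 list 7905. The sources used here do not say how many embryos stand behind a library, read depth is unknown, and there is no value per library, so no comparison below has a replicate error or a test. Dental epithelium and mesenchyme were dissociated together, and which of them a peak comes from cannot be told apart. The lists give no expression with which to check the tissue label. Of the marker genes examined, 2 of 8 for dental mesenchyme, 2 of 7 for dental epithelium, 2 of 4 for endothelium and 1 of 4 for macrophages had a pSmad1/5 peak within 10 kb, and 0, 0, 1 and 2 had a pSmad3 peak. Over all protein-coding genes the shares were 27.3% for pSmad1/5 and 24.4% for pSmad3. With so few markers per cell type, these counts do not rank the cell types.

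Msx and Dlx genes encode homeodomain transcription factors of the jaws, teeth, limbs and forebrain. Msx proteins act mainly as repressors and Dlx proteins mainly as activators, and both kinds bind short AT-rich sites. BMP receptors phosphorylate Smad1 and Smad5, which enter the nucleus with Smad4 and favour GC-rich sites, while TGF-β and activin receptors phosphorylate Smad3, which favours sites with the letters CAGAC. Early in molar development, Bmp4 from the epithelium induces Msx1 in the mesenchyme, and Msx1 in turn maintains Bmp4 there. Dlx genes stand in pairs that are transcribed towards each other and share enhancers, several of them in the spacer between the genes.

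The DNA just before the start sites of Msx1 and Msx2 is shown because these are the Msx genes with a peak in the locus, and that of Dlx2 because it holds Smad-type letters where no peak was listed nearby. The choice of Dlx2 was made after its values were seen. Each line gives the 250 bases before the RefSeq start site on the gene's own strand, 5′ to 3′ (GRCm38.p6, the assembly of mm10). The positions are chr5:37824586-37824835 for Msx1, chr13:53472781-53473030 for Msx2 and chr2:71546755-71547004 for Dlx2, all on the minus strand. Capitals mark matches to GGCGCC or GGAGCC, described for Smad1/5, to CAGAC, described for Smad3 and Smad4, or to TAATTA, a core of Msx and Dlx sites, each searched on both strands.
Msx1: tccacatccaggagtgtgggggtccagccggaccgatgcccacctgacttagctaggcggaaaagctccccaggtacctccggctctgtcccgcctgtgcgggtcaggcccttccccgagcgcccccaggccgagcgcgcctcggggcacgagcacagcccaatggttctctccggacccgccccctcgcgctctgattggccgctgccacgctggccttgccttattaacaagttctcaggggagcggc
Msx2: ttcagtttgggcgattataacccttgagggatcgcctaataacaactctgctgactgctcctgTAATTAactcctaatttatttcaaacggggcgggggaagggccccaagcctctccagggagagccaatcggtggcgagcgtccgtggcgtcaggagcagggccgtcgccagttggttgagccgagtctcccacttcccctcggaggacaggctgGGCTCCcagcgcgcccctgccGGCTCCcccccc
Dlx2: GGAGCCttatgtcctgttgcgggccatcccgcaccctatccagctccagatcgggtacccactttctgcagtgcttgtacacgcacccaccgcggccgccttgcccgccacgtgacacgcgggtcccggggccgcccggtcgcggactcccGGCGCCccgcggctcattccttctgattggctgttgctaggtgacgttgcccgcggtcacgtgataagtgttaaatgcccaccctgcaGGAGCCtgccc

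Msx1 had 0 matches to the 4 motifs in this window. Msx2 had 2 matches to GGAGCC, both as the reverse complement GGCTCC, and 1 TAATTA, and no 2 of its matches overlapped. Dlx2 had 2 matches to GGAGCC and 1 to GGCGCC. Dlx1, the remaining member among the 4 that matched an entry by symbol, had 0 matches. Over 32851 promoter entries of the same length, 42.2% held CAGAC, 26.0% GGAGCC, 9.59% GGCGCC and 4.84% TAATTA, so CAGAC and GGAGCC are common in promoters and GGCGCC and TAATTA less so. Neither list had a peak over any of these 4 windows. No share of all promoters with a peak is given here, so this only describes the 4 short windows.

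No peak of either antibody touched the body of a member, 0 of 8 genes, where a pSmad1/5 peak touched 18.4% and a pSmad3 peak 16.8% of all protein-coding genes, and 11.5% and 11.7% of those with bodies as long as the members' (3347 to 5900 bp). Within 10 kb, Msx1 had a pSmad1/5 peak, Msx2 and Dlx4 each had a pSmad3 peak, and Dlx1, Dlx2, Dlx3, Dlx5 and Dlx6 had neither. This makes 1 of 8 genes for pSmad1/5, where 27.3% of all protein-coding genes had a peak, and 2 of 8 for pSmad3, where 24.4% had one. Among the 1912 protein-coding genes of such length the shares were 26.0% and 23.3%. The 5 members with neither compare with 62.4% of all protein-coding genes, and 0 members with both antibodies compare with 14.1%. With 8 genes in 5 regions these counts lie near the background, and they set the family apart in neither direction.

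**Figure D1:**
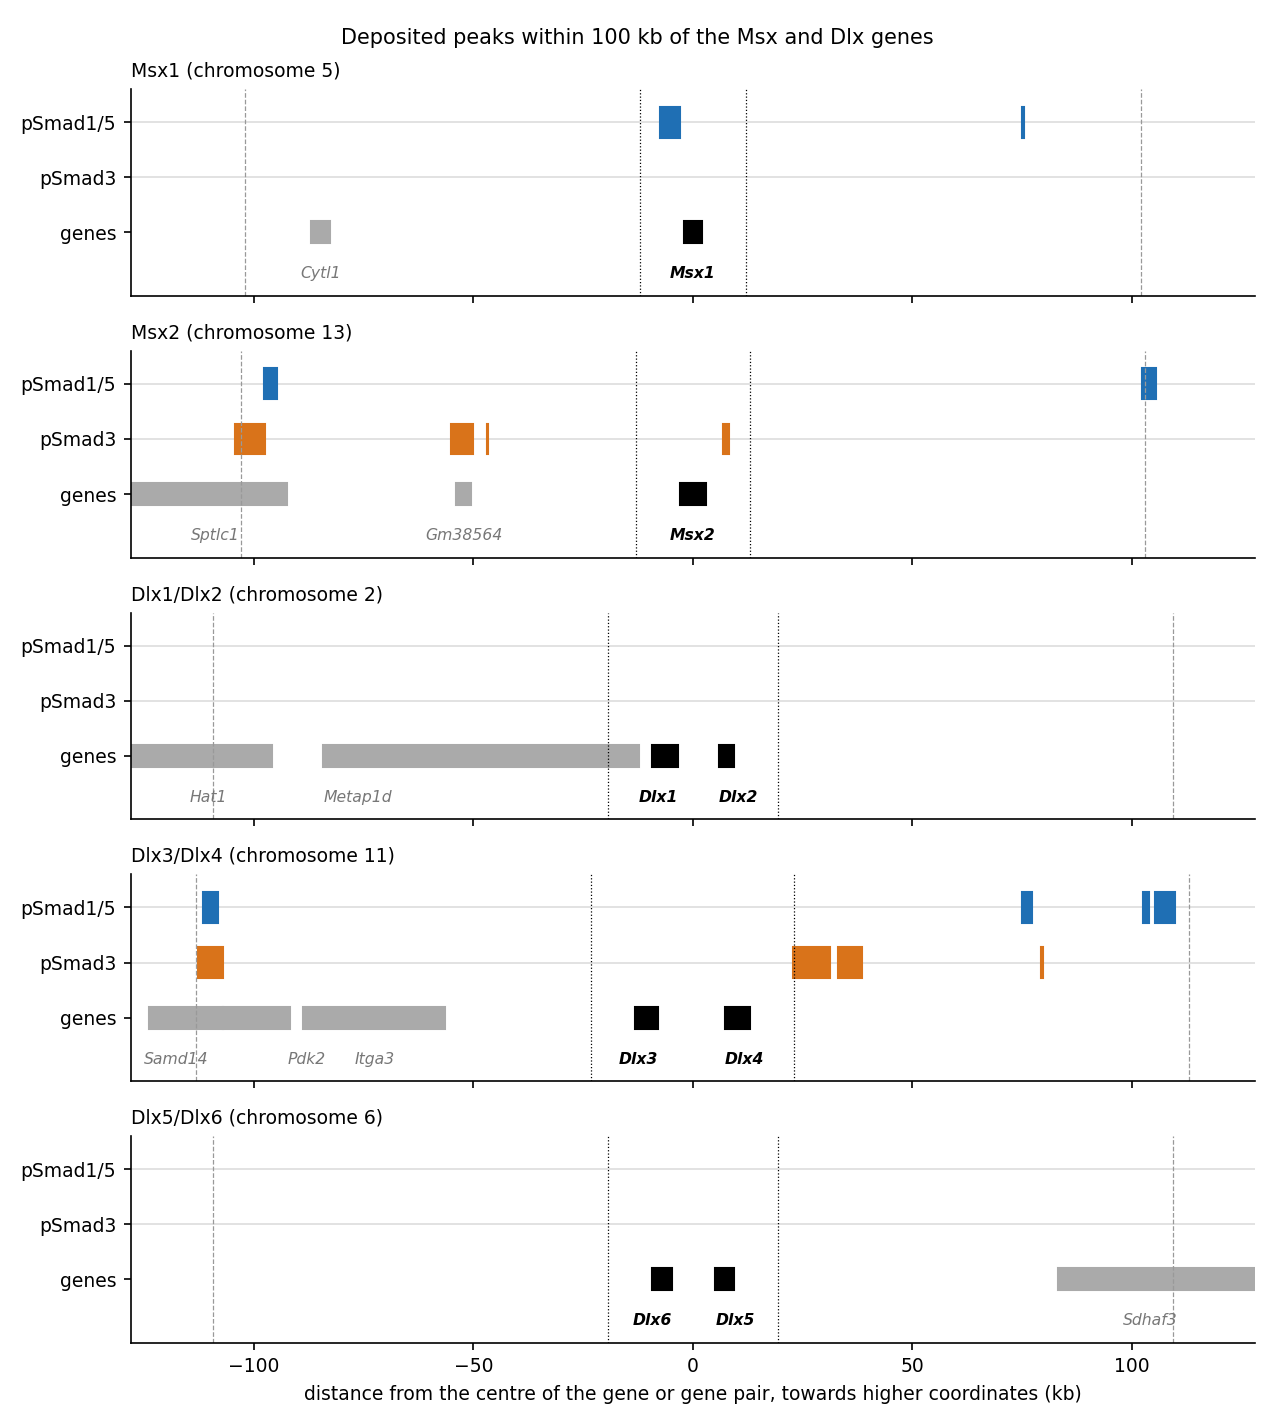
Deposited peaks (blue, pSmad1/5; orange, pSmad3) around the 5 regions, drawn to scale against the distance in kb from the centre of the gene or gene pair. Black boxes are the Msx and Dlx genes, grey boxes other protein-coding genes; dotted lines mark 10 kb and dashed lines 100 kb beyond the members. Peaks lie beside Msx1, Msx2 and Dlx4, over no member, and the Dlx1/Dlx2 and Dlx5/Dlx6 regions are empty.

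Msx1, the gene without which molar development stops at the bud stage, lies on chromosome 5 (37820491 to 37824585, mm10). Its pSmad1/5 peak ran from 37815083 to 37819696, 795 bp from the gene. Msx1 is transcribed from the minus strand, so the peak lay beyond its 3′ end, 4889 bp downstream of the start site. The peak was 4614 bp wide, wider than 92.3% of the list. Its total signal of 39828 was higher than that of 16.6% of the pSmad1/5 peaks, and its maximum signal of 18 higher than that of 63.3% (list median 16). Total and maximum are the authors' values for each peak, in a scale of their own, and are set only against the same list. The sources used here do not say which library a common peak takes its values from, so they and the ranks given here may describe 1 library. The region of the maximum, 37818670 to 37818741, lay inside the peak, 1750 bp from the gene. The peak is thus long and low in sum, with a maximum somewhat above the middle of its list.

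A further pSmad1/5 peak lay 72.9 kb from Msx1 at 37897462 to 37898079, over the lncRNA gene Gm20052. It was 618 bp wide, narrower than most peaks of the list, and its maximum of 14 was higher than that of 12.1% of them. The region of that maximum started 3868 bp outside the deposited interval, so the value belongs to a call longer than the peak. No pSmad3 peak lay within 100 kb of Msx1. The nearest, at Stx18, was 283 kb away, farther than the nearest pSmad3 peak of 72.8% of protein-coding genes.

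Msx2, a paralogue of Msx1 with roles in skull, tooth and hair, lies on chromosome 13 (53466881 to 53472780). Its listed antibody was the other one. A pSmad3 peak ran from 53476705 to 53478010, 3925 bp upstream of the start site, since Msx2 too is transcribed from the minus strand, and inside the lncRNA gene Gm33763. It was 1306 bp wide, wider than 10.6% of the pSmad3 list. Its total signal of 23455 was higher than that of 22.4% of the list and its maximum of 15 higher than that of 67.6% (list median 13). The region of the maximum lay 2254 bp beyond the far end of the peak and 7484 bp from the gene. The interval beside Msx2 is therefore a short part of a call whose highest point is farther out.

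Around Msx2 there were 3 more pSmad3 peaks and 2 pSmad1/5 peaks within 100 kb. A pair of pSmad3 peaks lay 47.2 and 43.6 kb away on the side of lower coordinates, the first over the protein-coding gene Gm38564 and both inside the lncRNA gene Gm2762. Their maxima were both 13, the list median. The farthest pSmad3 peak, 94.5 kb away inside Sptlc1, a gene for a subunit of serine palmitoyltransferase, met a pSmad1/5 peak 91.6 kb away, but the overlap was only 180 bp. The last pSmad1/5 peak lay 99.5 kb away on the other side, with a total signal higher than that of 4.65% of its list. Within 50 kb Msx2 therefore had pSmad3 peaks and no pSmad1/5 peak, and Msx1 a pSmad1/5 peak and no pSmad3 peak. Whether the genes differ in binding was not tested, since the lists show only what was called and not the signal elsewhere.

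Dlx1 and Dlx2, which together are needed for upper molars and for interneurons of the forebrain, lie on chromosome 2 (71528113 to 71533981 and 71543408 to 71546754). Neither list had a peak within 100 kb of either gene, and the 9.43 kb spacer between them held 0 peaks. The median interval between neighbouring peaks was 47.8 kb for pSmad1/5 and 65.2 kb for pSmad3. These are longer than the spacer of any Dlx pair, so a spacer without a peak is not unusual. The nearest pSmad1/5 peak was 178 kb from Dlx2 and 191 kb from Dlx1, over the lncRNA gene Platr26, and belonged to a call in 3 pieces. The nearest pSmad3 peak, at Rapgef4, was 556 kb from Dlx2 and 568 kb from Dlx1. A nearer pSmad3 peak was listed for 82.9% and 83.3% of protein-coding genes.

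Dlx5 and Dlx6, which give the lower jaw its identity, lie on chromosome 6 (6877801 to 6882068 and 6863334 to 6867970). They too had no peak of either antibody within 100 kb, and 0 peaks in their 9.83 kb spacer. The nearest pSmad1/5 peaks were 279 kb from Dlx5 and 293 kb from Dlx6, and the nearest pSmad3 peaks 402 and 416 kb. The antisense lncRNA gene Dlx6os1, which runs through Dlx6, was without a peak as well. These 4 members have an empty window, 4 of 8, where 31.1% of all protein-coding genes, and 25.5% of those of similar length, had no peak within 100 kb. They stand for 2 of the 5 regions.

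Dlx3 and Dlx4 lie on chromosome 11 (95120117 to 95125296 and 95140447 to 95146294). Dlx3 acts in enamel, hair and placenta, and Dlx4 is the less studied of the pair. Their spacer of 15.2 kb, the longest of the 3, also held 0 peaks. A pSmad3 peak at 95156036 to 95164460 began 9742 bp from Dlx4 and 30.7 kb from Dlx3, so it counts for Dlx4 and lies just inside the 10 kb limit. It covered the end of Dlx4os, a lncRNA gene that overlaps Dlx4. The peak was 8425 bp wide, and its total signal of 62094 was higher than that of 89.5% of the pSmad3 list, the highest rank among the peaks near the members. Its maximum of 16 was higher than that of 76.9% of the list, and the region of the maximum, at 95156038 to 95156039, was at the edge nearest to Dlx4.

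A second pSmad3 peak followed at 95166227 to 95171798, 19.9 kb from Dlx4 and just outside the limit, with a maximum of 11 that was higher than that of 8.58% of the list. The pSmad1/5 peak nearest to the pair was 61.8 kb from Dlx4 and 82.8 kb from Dlx3. It lay 2079 bp from a pSmad3 peak of 476 bp, both inside the lncRNA gene Gm11515, so the antibodies met in the same gene without overlap. The nearest protein-coding gene to both was Tac4, which encodes tachykinin peptides. Farther out in Gm11515, a pSmad1/5 call in 2 pieces lay 89.5 and 92.2 kb from Dlx4. On the other side, at Samd14, a pSmad1/5 peak of 3457 bp 94.9 kb from Dlx3 lay wholly within a pSmad3 peak of 5582 bp. Near Dlx3 and Dlx4, as near Msx2, the only overlap of the antibodies was thus at a neighbouring gene. No member had peaks of both antibodies within 50 kb, where 31.9% of all protein-coding genes and 37.8% of those of similar length did. No overlap could therefore lie in a locus. With so few regions this count was not tested.

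Counted together, 8 pSmad1/5 peaks from 7 calls and 8 pSmad3 peaks from 8 calls lay within 100 kb of a member. Of each 8, 2 overlapped a peak of the other antibody by at least 1 bp, where 21.9% of all pSmad1/5 and 23.1% of all pSmad3 peaks did. Beyond 40 kb of the nearest member lay 7 of the 8 pSmad1/5 peaks and 5 of the 8 pSmad3 peaks, and beyond 60 kb 7 and 3. Most of the 100 kb on each side lies beyond 40 kb. No share over all genes was computed for these cuts, so the counts only describe where the peaks lie. Maxima ran from 14 to 18 for pSmad1/5 and from 11 to 16 for pSmad3. The peaks near the members are therefore ordinary ones, with no maximum far above its list's median.

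The maximum signal separated the 3 peaks in the loci from the 13 farther out. The peaks at Msx1, Msx2 and Dlx4 had maxima above their list's median, and the others were at the median (7 peaks) or below it (6 peaks). Of those at the median, 2 are pieces of 1 call and share its maximum. The region of the maximum for Msx2 lay 2254 bp outside its peak. Over the whole lists 47.9% of pSmad1/5 and 45.2% of pSmad3 peaks had a maximum above the median. The total signal showed no such order, since it was at or above the median for Dlx4 and for 5 of the 13 peaks farther out. This pattern was noticed in the data, rests on 3 peaks and on signals that may be those of 1 library, and was not tested.

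**Figure D2:**
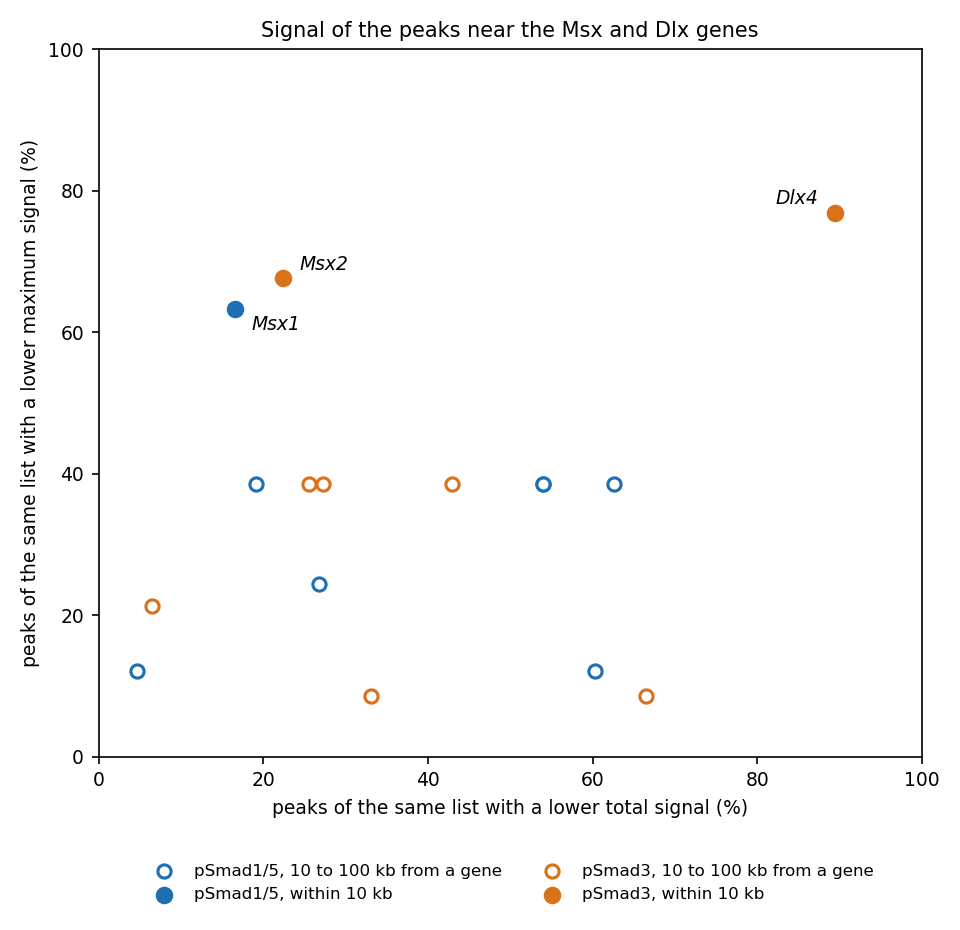
Each point is a peak within 100 kb of a member, placed by the percentage of peaks of its own list with a lower total signal (x) and a lower maximum signal (y); filled points lie within 10 kb of the named gene. The filled points sit at 63.3% to 76.9% on the y axis, and the open points at 38.5% or lower; points at 38.5% are at the list median, which many peaks share.

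The counts depended on the window. With 5 kb on each side 1 member had a pSmad1/5 peak (Msx1; 23.2% of protein-coding genes) and 1 a pSmad3 peak (Msx2; 21.0%). With 50 kb the counts were 1 (47.3%) and 3 (42.4%), as Dlx3 was added for pSmad3. With 100 kb they were 4 (59.9%) and 3 (54.2%), the pSmad1/5 count rising through Msx2, Dlx3 and Dlx4. The pSmad1/5 count thus stayed at Msx1 alone out to 50 kb, while the share of all genes with a peak grew at every step.

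**Figure D3:**
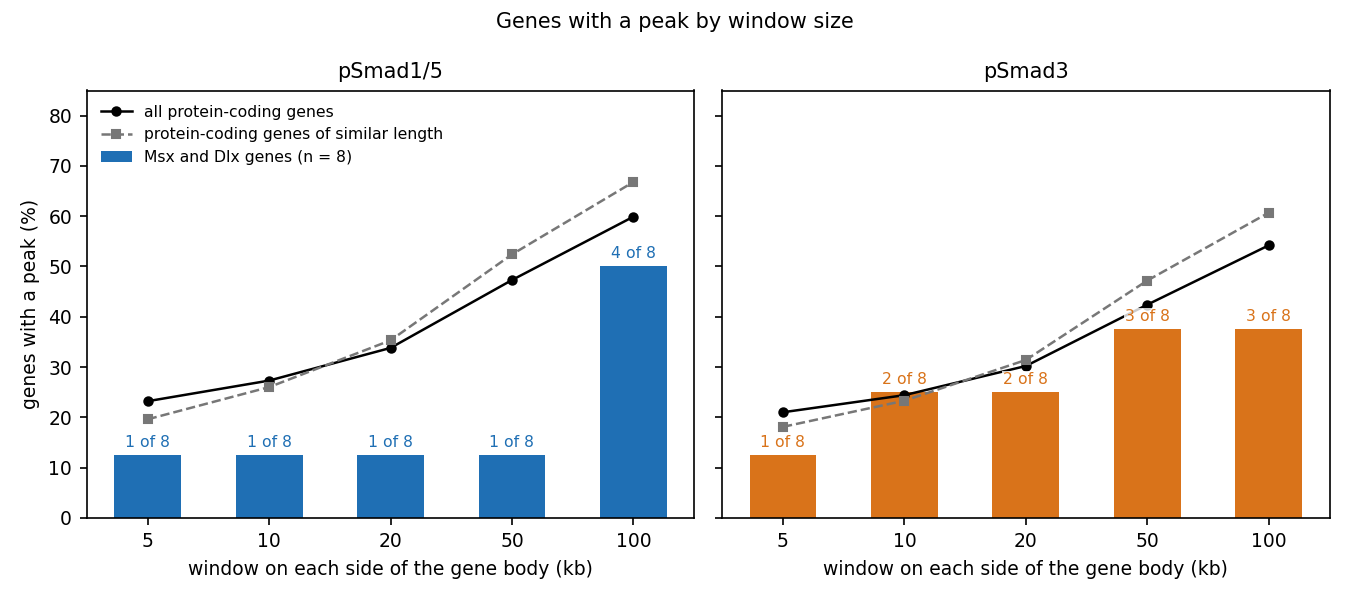
Bars give the percentage of the 8 members with a peak when the window on each side of the gene body is 5, 10, 20, 50 or 100 kb, with the count above; lines give the same for all 21523 protein-coding genes (solid) and for the 1912 of similar length (dashed). For pSmad1/5 the bar is below both lines at every window, and for pSmad3 it is close to them at 10 kb and below them at 100 kb.

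The order of the members by distance differed between the antibodies. For pSmad1/5 it ran from Msx1 (0.795 kb) through Dlx4 (61.8 kb), Dlx3 (82.8 kb), Msx2 (91.6 kb), Dlx2 (178 kb), Dlx1 (191 kb) and Dlx5 (279 kb) to Dlx6 (293 kb). For pSmad3 it ran from Msx2 (3.92 kb) through Dlx4 (9.74 kb), Dlx3 (30.7 kb), Msx1 (283 kb), Dlx5 (402 kb), Dlx6 (416 kb) and Dlx2 (556 kb) to Dlx1 (568 kb). Neighbours within a Dlx pair share their nearest peak, so their order reflects only their place beside it. The median over the members was 135 kb for pSmad1/5 and 342 kb for pSmad3, against 58.1 and 79.2 kb over all protein-coding genes and 44.7 and 58.5 kb over those of similar length. The members' medians count both genes of each Dlx pair, so a shared nearest peak enters more than once. The interquartile range over all genes, 7.18 to 230 kb and 11.0 to 326 kb, holds the pSmad1/5 distances of all members but Msx1, Dlx5 and Dlx6 and the pSmad3 distances of Msx1 and Dlx3.

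**Figure D4:**
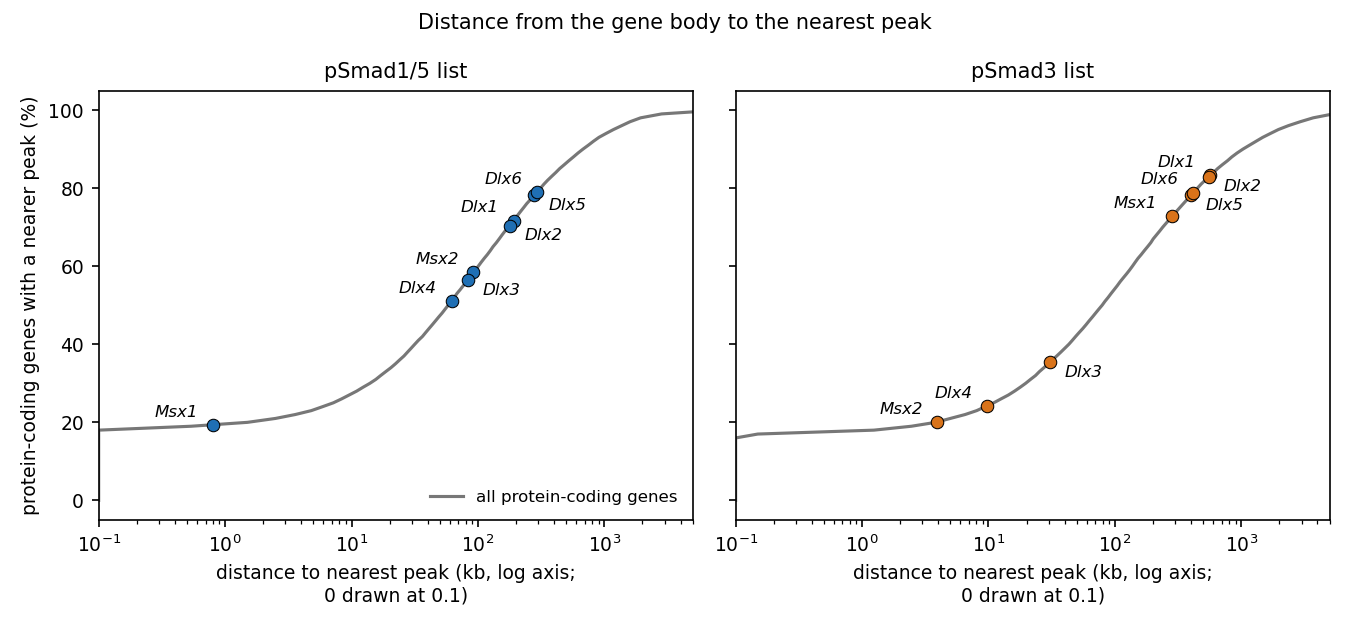
The grey curve gives, for each distance to the nearest peak (log axis, kb), the percentage of protein-coding genes with a nearer one; points are the 8 members. Msx1 sits low on the pSmad1/5 curve and Msx2 and Dlx4 low on the pSmad3 curve, while Dlx1, Dlx2, Dlx5 and Dlx6 lie above 70% on both.

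The surroundings of the members ranged from empty to dense. Within 500 kb of the gene body, Dlx3 had 10 pSmad1/5 and 15 pSmad3 peaks and Dlx4 had 12 and 15, against medians of 6 and 4 over protein-coding genes. Msx1 had 11 and 4, and Msx2 had 6 and 12. The antibody with the peak in the locus was the more frequent one around each Msx gene. These counts include the peak in the locus, and pSmad1/5 peaks are the more frequent ones over all genes too. Dlx5 and Dlx6 each had 4 and 1. Dlx1 and Dlx2 each had 5 pSmad1/5 peaks and 0 pSmad3 peaks, and 18.4% of protein-coding genes had no pSmad3 peak at this distance.

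The intervals without a peak around the empty Dlx pairs were long. Around Dlx1 and Dlx2 no pSmad1/5 peak was listed over 1.07 Mb and no pSmad3 peak over 1.22 Mb, spans that hold 11 protein-coding genes each. Around Dlx5 and Dlx6 the spans were 0.658 Mb (4 genes) and 2.36 Mb (11 genes). Of the intervals between neighbouring pSmad3 peaks, 94.5% were shorter than that at Dlx1 and Dlx2 and 97.4% shorter than that at Dlx5 and Dlx6. Measured by length, 56.7% and 41.6% of all sequence between pSmad3 peaks lay in intervals at least as long, so gaps of this length make up much of the genome. At Msx2 and at Dlx3 and Dlx4 the pSmad3 intervals were 53.4 and 130 kb, and at Msx1 the pSmad3 interval was 685 kb against 77.8 kb for pSmad1/5.

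**Figure D5:**
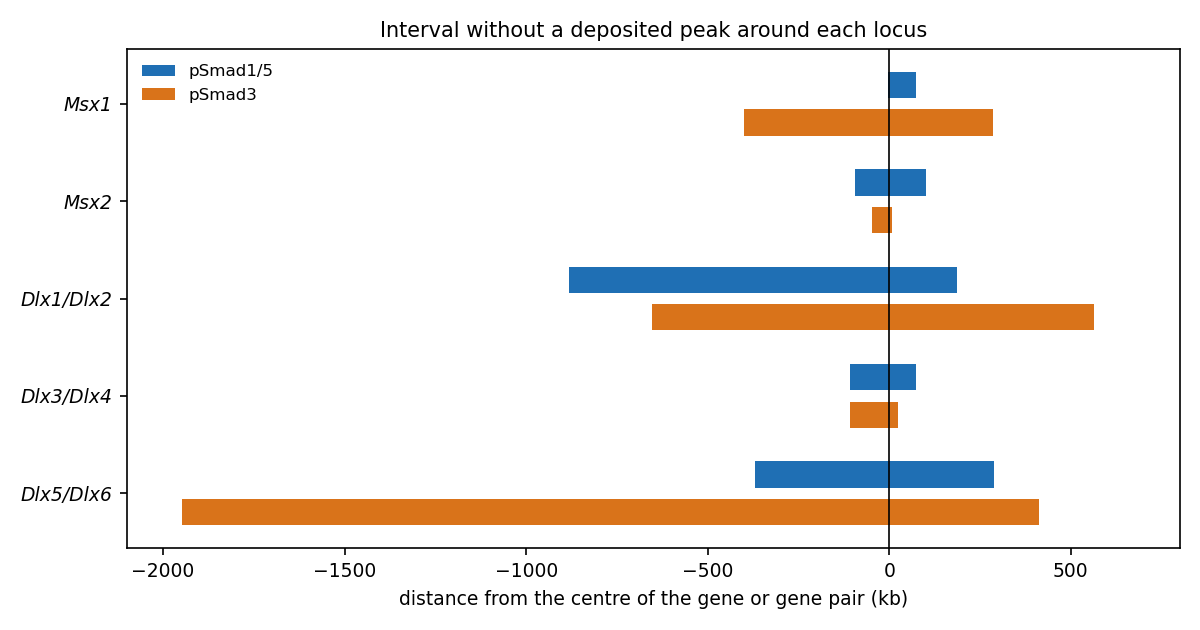
Bars show the interval between the nearest peaks on either side of each gene or gene pair, by antibody, against the distance in kb from its centre (vertical line). The bars are shortest at Msx1 for pSmad1/5 (77.8 kb) and at Msx2 for pSmad3 (53.4 kb) and longest at Dlx5/Dlx6 for pSmad3 (2360 kb).

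Related genes gave similar shares within 10 kb. Of 25 other homeobox genes of the NKL class, to which Msx and Dlx belong, pSmad1/5 peaks were listed in the loci of 5, pSmad3 peaks in those of 5, and 16 had neither (64.0%). Msx3, the remaining Msx gene, expressed in the neural tube, had a pSmad3 peak 7.77 kb away whose total signal was higher than that of 79.7% of the list, and no pSmad1/5 peak within 10 kb. Hmx1 had 3 peaks of pSmad1/5 (2 calls) and 2 of pSmad3, Barhl1 and Hlx each had a pSmad1/5 peak and Dbx1 a pSmad3 peak. Within 100 kb, 18 of the 25 had a pSmad1/5 peak, 15 a pSmad3 peak and 4 neither, against 4, 3 and 4 of the 8 members. Over all protein-coding genes these shares were 59.9%, 54.2% and 31.1%. The median distance to the nearest peak over this class was 47.4 kb for pSmad1/5 and 60.5 kb for pSmad3, shorter than the 135 and 342 kb of the members. The members' medians count both genes of each Dlx pair, which share a nearest peak. The differences between this class and the members were not tested.

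Of 28 genes that feed BMP signals to Msx and Dlx genes or work with them in the tooth, 6 had a pSmad1/5 peak (21.4%) and 5 a pSmad3 peak (17.9%), 3 of them both, and 20 had neither. Bmp7, a ligand, had 4 peaks of pSmad1/5 (3 calls) and 3 of pSmad3. Smad6, an inhibitory Smad, had 1 of each, and Nog, a BMP antagonist, had a pSmad1/5 peak 8.62 kb away. Id1, a common readout of BMP signalling, had a pSmad3 peak but no pSmad1/5 peak in the locus, the nearest being 23.9 kb away. Lhx6, a homeobox gene of the molar mesenchyme, had a pSmad1/5 peak touching the gene. These shares, like those of the members, lie below the 27.3% and 24.4% of all protein-coding genes or close to them.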

How the data were processed

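CUT&RUN libraries, 2 per antibody, were digested for 30 min and read as 100 bp paired ends, per the labels' protocols. Reads were processed with SEACR, Bowtie2, SAMtools, deepTools and bedtools on mm10, per the submitters' processing notes, which name no versions; the sources used here do not state settings, controls or how lists were joined. Total and maximum are coverage signal deposited by the authors for each peak, in their own scaling, used only to rank peaks within a list. Lines sharing total, maximum and its region are pieces of 1 call. Genes came from RefSeq GRCm38.p6, leaving out those within the first 3 Mb of a chromosome, and all 8 members matched. Promoters of 4 members matched. Distances ran from gene body to nearest peak edge, and "higher than" counts peaks with a strictly lower value. The code was tested on simulated peaks. Python 3.11.15, pandas 2.3.3, numpy 2.4.6 and matplotlib 3.10.9 were used. The members, the gene lists, the motifs and the rule for named genes (all members, the protein-coding gene nearest to each peak near them, and up to 5 genes with a peak per list of related genes, by highest total-signal rank) were chosen with earlier results of these data known. No test was made: each antibody has 1 list, and the 8 genes are not replicates.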

Additional observations from a re-analysis of the deposited data

How the results depend on the processing

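Of 22 alternatives, 14 left the count within 1.5 times its value. With peaks at or above the median total signal alone, 0 members had a pSmad1/5 peak in the locus and 1 (Dlx4) a pSmad3 peak, and 4 pSmad1/5 and 2 pSmad3 peaks lay within 100 kb. The pSmad3 count of 2 members fell to 1 (Msx2) with 5 kb on each side and to 1 with peak midpoints, as the midpoint at Dlx4 is 14.0 kb from the gene. When at least 50% of a peak had to be covered, 1 pSmad1/5 and 1 pSmad3 peak overlapped the other antibody, the pair at Samd14. These settings lower the counts by their construction, since they admit fewer peaks. No share over all genes is given for the total-signal setting, so its counts cannot be set against a background. Counting calls, or leaving out peaks over 2 times the median maximum, changed no count by more than 1.5 times. No paired analysis was possible because each antibody has 1 list common to its 2 libraries, which also leaves no replicate to leave out. Read depth is unknown, so a missing peak does not show that signal is absent.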
